A study of Mus musculus and Homo sapiens with 53 samples.

Results

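Expression of 8 genes for Fc receptors and Fc receptor-like proteins was examined in germinal center B cells with loss of Crebbp, Kmt2d or both. The genes were chosen by name. Fcer2a, Fcgr2b, Fcrl1, Fcrl5, Fcrla, Fcrlb, Fcmr and Pirb were 8 of the 55401 genes counted in sorted cells and 8 of the 24098 counted in BCL2-transgenic mice. In the human lymphoma line OCI-Ly7 the 8 were FCER2, FCGR2B, FCRL1, FCRL5, FCRLA, FCRLB, FCMR and LILRB1, the counterpart of Pirb, out of 60662 genes. All 8 passed the filter on low counts in every fit.

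Bulk RNA-seq had been carried out on 53 libraries. Centroblasts (CB, CXCR4hi CD86lo) and centrocytes (CC, CXCR4lo CD86hi), the dark zone and light zone states of germinal center B cells, came from splenic sorts of 8-week-old mice on a C57BL/6J background at day 10 after sheep red blood cells (SRBC). All of these mice carried Cg1Cre+/-, a Cre expressed from the Ighg1 locus and so active in activated B cells. WT mice carried nothing else, C mice were Crebbp fl/+, K mice were Kmt2d fl/+, and CK mice carried both floxed alleles. There were 4 WT, 4 C, 3 K and 3 CK libraries of CB, and of CC 4 each of WT, C and K and 3 of CK. In the BCL2 set, lethally irradiated recipients 8 weeks old had received marrow carrying VavP-BCL2+/-, a transgene active in blood cells, and SRBC every 3 weeks from day 56. Cells were sorted at day 235 as GC B cells per the labels, while the study's methods name B220-positive lymphoma cells. BCL2, BCL2+C, BCL2+K and BCL2+CK had 4 libraries each, and the last 3 carried Cg1Cre+/- with Crebbp fl/+, Kmt2d fl/+ or both. The sources differ on whether BCL2 controls carried Cre, and if they did not, Cre and the floxed alleles cannot be told apart. OCI-Ly7, a line of the germinal center type of diffuse large B-cell lymphoma, was edited into isogenic clones grown from single cells, with 2 libraries of each genotype. Here C is a homozygous CREBBP-R1446C knock-in, K is KMT2D-KO, CK has both, and WT is unedited. The number of clones per genotype was not stated, so the edit and the history of a clone cannot be told apart.

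Fc receptors bind the constant region of antibodies. On B cells, Fcgr2b carries an inhibitory motif that recruits the lipid phosphatase encoded by Inpp5d when antigen-antibody complexes bind. Fcer2a encodes CD23, the low-affinity receptor for IgE, a marker of follicular B cells that is induced by IL4 and CD40 and is shed by the protease Adam10. Fcmr encodes the receptor for IgM. Fcrl1 and Fcrl5 are surface receptors that tune B-cell receptor signaling, and Fcrla and Fcrlb are intracellular relatives. Pirb, and LILRB1 in human cells, are inhibitory receptors for MHC class I that signal through the phosphatase encoded by Ptpn6. In bulk samples, fewer cells of a type and less RNA per cell cannot be told apart.

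Total counts ranged from 12947256 to 40920485 per library, and the biological coefficient of variation ranged from 6.95% in OCI-Ly7 to 22.8% in the BCL2 set. Counts over whole genes do not resolve the deleted exons. Crebbp and Kmt2d were not called lower in any mutant group. In CB, Crebbp ranged over 31.7 to 83.3 CPM (counts scaled to a common library size) in WT, 82.7 to 92.3 in C and 37.5 to 61.5 in CK. Kmt2d ranged over 48.4 to 190 CPM in WT and 118 to 156 in CK. At 208 to 237 CPM in K it was above all WT libraries, opposite to the loss of a copy. The labels were therefore not checked by these genes. Centrocyte markers summed to 1650 to 1790 CPM in WT CC against 477 to 480 in WT CB, and centroblast markers to 778 to 879 against 1670 to 1790, in the directions of the labels. CK libraries of CB had slopes of log2 CPM on transcript GC content of 0.515 to 0.656 per 10 points, against -0.591 to -0.0464 in WT. The WT and CK ranges overlapped in CC, at -0.419 to 0.0932 and 0.0814 to 0.597. Values with this trend removed are therefore given where they change a statement. WT replicate 3 was the library least like its own group in both fractions.

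Levels between genes were compared per length, as RPKM over the summed exon length (CPM per kilobase). In WT CB, Fcmr (201 ± 12.1 RPKM, SD, n = 4) and Fcrla (190 ± 19.7) stood highest, with overlapping spreads, and were followed by Fcrl1 (63.1), Fcgr2b (38.9) and Fcer2a (16.9 ± 3.35). Fcrlb (1.45), Pirb (0.927) and Fcrl5 (0.117) were low. In WT CC the order was Fcmr (324), Fcrla (184), Fcer2a (103 ± 17.5), Fcrl1 (62.9) and Fcgr2b (54.5), with Pirb (2.86), Fcrl5 (1.77) and Fcrlb (1.69) again lowest. Fcer2a thus stood below Fcrl1 and Fcgr2b in CB and above both in CC, while Fcrl5 and Fcrlb did not differ beyond their spread in CC. BCL2 cells had the order Fcmr (325 RPKM), Fcrla (233), Fcrl1 (88.8), Fcer2a (67.6), Fcgr2b (50.7), Pirb (6.74), Fcrl5 (6.30) and Fcrlb (1.48), with spreads that overlapped between Fcrl1 and Fcer2a, between Fcer2a and Fcgr2b and between Pirb and Fcrl5. Unedited OCI-Ly7 cells had FCRLA far above the rest, at 237 RPKM (n = 2), then FCRL1 (21.8), FCER2 (15.7), FCRL5 (8.01), FCGR2B (4.33), LILRB1 (3.73), FCRLB (1.63) and FCMR (1.17). Levels were set side by side across species only as ranks. FCMR was lowest there, whereas Fcmr had the highest mean in WT CB, WT CC and BCL2 cells, with a spread that overlapped that of Fcrla in WT CB.

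Promoter sequences are shown for the 3 human genes with the largest differences between edited and unedited OCI-Ly7 cells. Each is the 250 bases before a start site, on the strand of the gene, with matches to the searched motifs in capitals. The motifs, on both strands, were the core TGGGAA bound by RBPJ, through which Notch acts, the spacing bound by STAT6, which acts below the IL4 receptor (TTC and GAA with any 4 bases between them), the cAMP response element TGACGTCA, where CREB recruits CREBBP, and the ETS core GAGGAA. The windows were read from hg38 at the start of the main GENCODE v44 transcript and lie at chr19:7702132-7702381 (minus strand, FCER2), chr1:161662893-161663142 (plus strand, FCGR2B) and chr19:54630234-54630483 (plus strand, LILRB1).
FCER2: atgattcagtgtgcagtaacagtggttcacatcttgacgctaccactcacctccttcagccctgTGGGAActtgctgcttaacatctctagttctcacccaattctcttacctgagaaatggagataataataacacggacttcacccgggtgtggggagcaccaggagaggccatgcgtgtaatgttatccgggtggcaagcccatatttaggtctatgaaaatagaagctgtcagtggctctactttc
FCGR2B: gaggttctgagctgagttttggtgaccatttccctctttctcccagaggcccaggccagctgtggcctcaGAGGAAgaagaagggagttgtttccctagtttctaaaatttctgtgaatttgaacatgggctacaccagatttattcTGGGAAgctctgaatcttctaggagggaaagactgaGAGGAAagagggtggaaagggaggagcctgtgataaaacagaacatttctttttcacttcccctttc
LILRB1: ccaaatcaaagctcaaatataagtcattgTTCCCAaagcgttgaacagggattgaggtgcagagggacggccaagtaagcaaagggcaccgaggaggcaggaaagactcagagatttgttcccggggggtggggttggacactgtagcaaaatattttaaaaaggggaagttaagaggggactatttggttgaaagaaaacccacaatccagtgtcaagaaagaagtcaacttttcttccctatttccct

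All 3 windows held the RBPJ core, at -186 in FCER2, -221 in LILRB1 and -103 in FCGR2B, counted from the start site. FCGR2B also held the ETS core at -180 and -67. The STAT6 spacing and the cAMP element were not found in these 3 windows. Among the other human members, the windows of FCRL5 (-134) and FCRLB (-238) held the RBPJ core, and those of FCMR, FCRL1 and FCRLA did not. The FCRL1 window held the STAT6 spacing at -215 and -44. The ETS core was found in the windows of FCMR (-198, -55 and -35), FCRL1 (-14) and FCRLA (-42). FCMR was called lower in C, K and CK, and FCRL5 in none of them. The letters of these motifs are common. Of 20046 human windows of this length, 19.6% held the RBPJ core, 23.3% the ETS core, 4.17% the STAT6 spacing and 2.41% the cAMP element. A match is a description of the letters and not of binding.

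**Figure D1:**
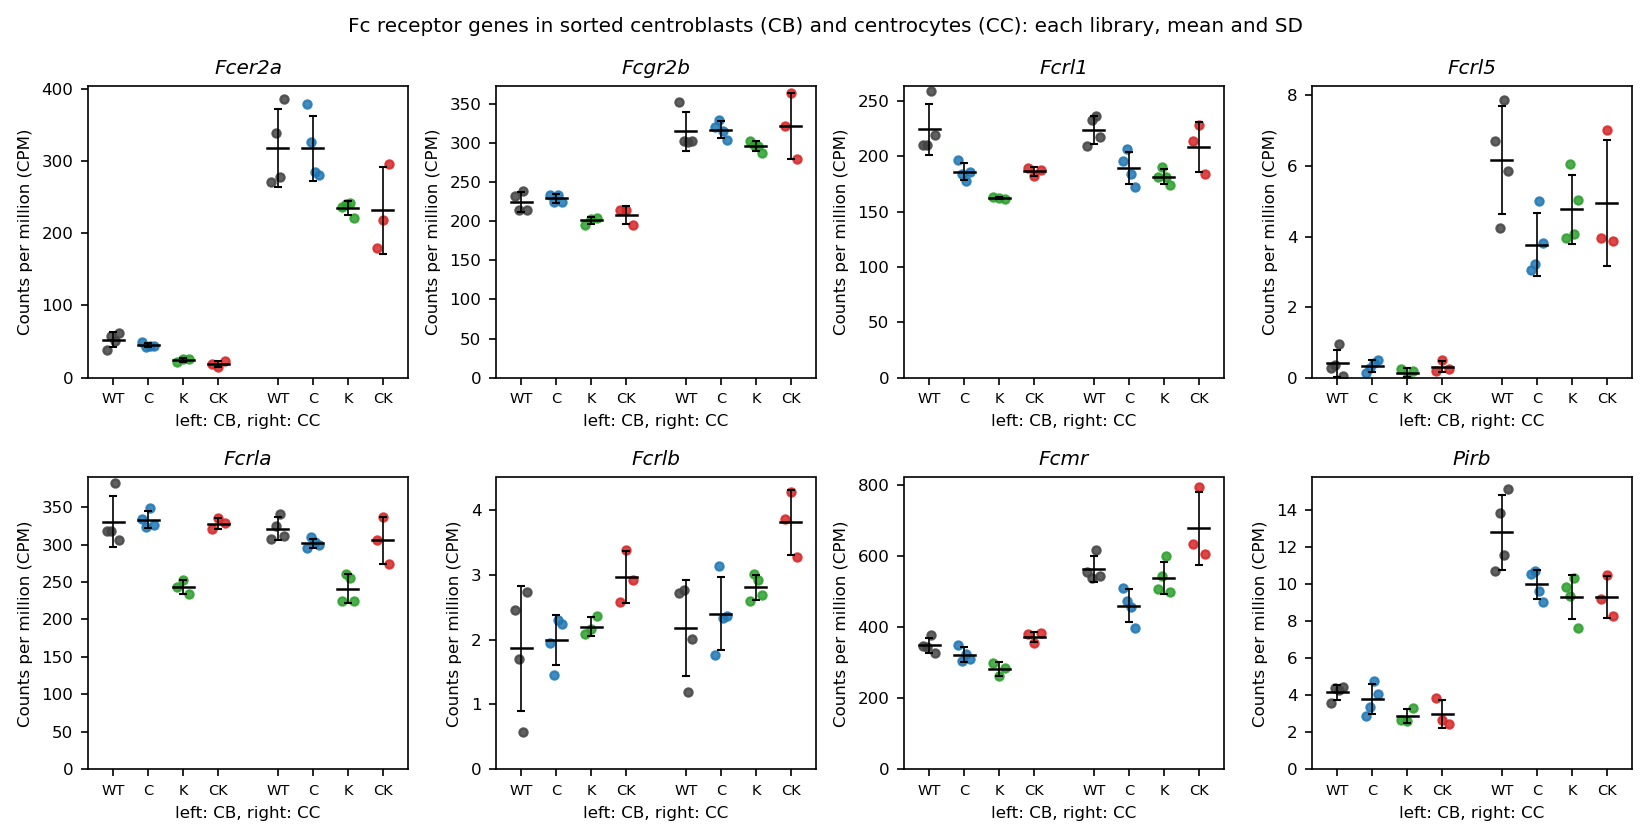
CPM (y axis, linear, from 0) of the 8 genes in sorted CB (left group in each panel) and CC (right group) of the 4 genotypes, with a point for each library, the mean as a line and the SD as a bar. Fcer2a stood between 14.4 and 62.5 CPM in all CB libraries and between 180 and 386 in all CC libraries.

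The comparison of CC with CB asked how these genes move with the passage from dark zone to light zone. Fcer2a, Pirb and Fcrl5 were higher in CC than in CB of every genotype, and Fcmr was higher in WT, K and CK. Fcer2a stood at 38.4, 57.3, 51.2 and 62.5 CPM in WT CB replicates 1 to 4 and at 271, 339, 277 and 386 CPM in the WT CC libraries with the same numbers. Every WT CC library was above every WT CB library. The log2 fold change was 2.60 ± 0.16 (SE, edgeR adjusted p 1.02e-13), a 6.08-fold difference. It was 2.82 in C, 3.26 in K and 3.65 in CK, all called. In the text, called means an edgeR adjusted p under 0.01 with an absolute log2 fold change over 0.58.

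Fcrl5 was close to absent in CB, with 1 to 15 counts per WT library (0.0526 to 0.956 CPM). WT CC libraries held 6.71, 4.25, 7.87 and 5.87 CPM. The groups did not overlap, and the log2 fold change was 3.97 ± 0.42 in WT (edgeR adjusted p 1.48e-08) and between 3.53 and 5.05 in the mutants, with a wide error set by the low CB counts. The sizes in K rest on 0 to 5 counts per CB library. Pirb stood at 3.55, 4.35, 4.27 and 4.42 CPM in WT CB and at 10.7, 13.8, 11.5 and 15.1 in WT CC, again without overlap. Its log2 fold change was 1.62 in WT, 1.41 in C, 1.70 in K and 1.65 in CK (edgeR adjusted p 7.18e-09 in WT).

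Fcmr stood at 347, 344, 377 and 326 CPM in WT CB and at 553, 536, 617 and 542 CPM in WT CC. All CC libraries were above all CB libraries, and the log2 fold change was 0.69 in WT, 0.93 in K and 0.86 in CK (called) and 0.51 in C, which passed the p but not the fold limit. Fcgr2b was higher in CC by 0.49 in WT, 0.47 in C and 0.56 in K, each under the fold limit, and by 0.63 in CK, where it was called. That last call was lost without CC CK replicate 3 (0.54), with only the groups compared (0.60) and with the replicate block (0.56). With the trend removed K was called too, at 0.63. Fcrl1 (0.00 in WT, 95% interval -0.17 to 0.16), Fcrla (-0.04, -0.20 to 0.12) and Fcrlb (0.22, -0.36 to 0.79) were not called in any genotype.

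Members were called higher in CC in 4 of 8 cases in WT, where 4.4% of 20659 genes were called higher, in 3 of 8 in C (3.59%), in 4 of 8 in K (3.64%) and in 5 of 8 in CK (3.96%). None was called lower, against 3.19%, 3.06%, 3.18% and 2.61% of genes in the same order. The median log2 fold change of the 8 in WT was 0.59, against 0.00 over all genes tested. Markers of other cells moved in the same comparison. The summed CPM of 10 naive follicular B-cell markers was 117 to 140 in WT CB and 192 to 253 in WT CC, that of 14 myeloid markers 31.5 to 40.4 and 61.1 to 71.6, and that of 10 T-cell markers 2.05 to 6.83 and 7.11 to 11.8. Of the myeloid markers Mpo was at 0 in every WT CB library, and no naive follicular or T-cell marker was at 0 throughout a group. Fcer2a is itself high in naive follicular B cells and Pirb and Fcgr2b in myeloid cells, and the part of these cells in the differences was not tested.

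**Figure D2:**
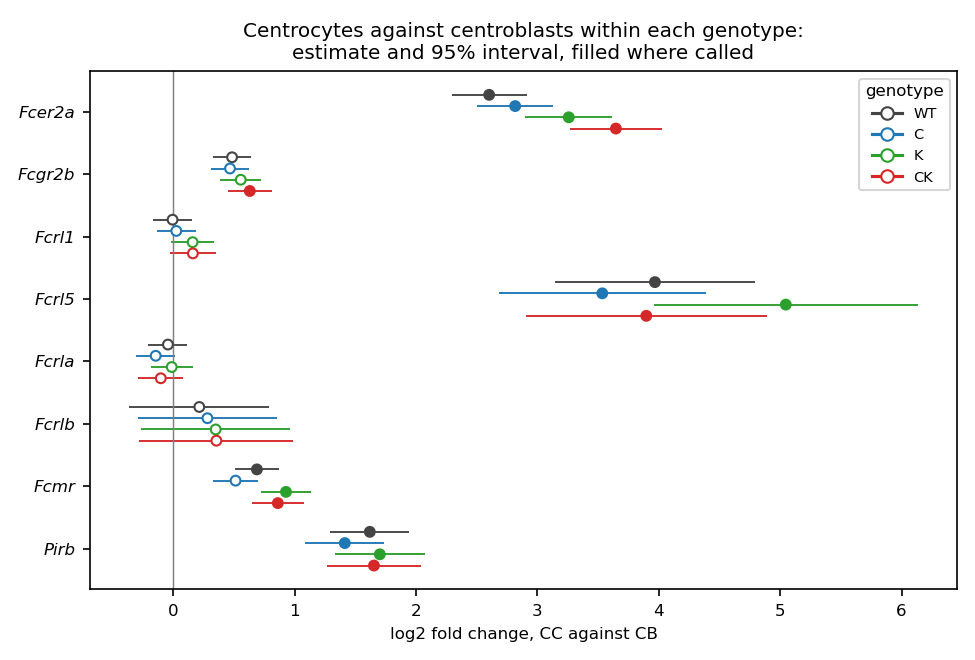
Log2 fold change of CC against CB (x axis) for each gene and genotype, with 95% intervals as bars and filled points where called. Fcer2a (2.60 to 3.65), Fcrl5 (3.53 to 5.05) and Pirb (1.41 to 1.70) were called in all 4 genotypes, while Fcrl1, Fcrla and Fcrlb lay near 0.

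Each mutant was then compared with WT within CB, to ask whether loss of 1 copy of either gene or of both changed the members. Fcer2a was lower in K and in CK. K replicates 1, 3 and 4 stood at 21.8, 25.9 and 26.0 CPM, and CK replicates 1, 2 and 4 at 18.2, 14.4 and 23.0, while C replicates 1 to 4 stood at 49.7, 42.8, 44.4 and 43.3. All K and CK libraries were below all WT and C libraries, and the C range lay within that of WT (38.4 to 62.5). The log2 fold change was -1.09 ± 0.16 in K (SE, edgeR adjusted p 0.00685), -1.50 ± 0.17 in CK (1.27e-06) and -0.22 ± 0.14 in C (0.497). Against C, CK was lower by -1.28 (7.15e-06), and against K by -0.41 (95% interval -0.75 to -0.07, 0.0838), which was not called as counted but was called with the GC and length trend removed, at -0.80. The CK change differed from C and K added together by -0.19 (-0.63 to 0.25). The K call rests on few libraries. It was lost without K replicate 1, 3 or 4 or without WT replicate 2 or 4, with estimates of -1.13 to -0.99, and when only K and WT libraries were fitted, at -1.09. Naive follicular markers, of cells that carry CD23, summed to 117 to 140 CPM in WT CB, 123 to 131 in C, 107 to 131 in K and 90.2 to 117 in CK, with none at 0 throughout. Germinal center markers summed to 3670 to 4070 CPM in WT CB and 2760 to 2810 in CK, and plasma cell markers to 1310 to 2110 and 1100 to 1140, without overlap. In K the sums were 3870 to 4160 and 1240 to 1370, both overlapping WT. In C they were 4320 to 4800, above all WT libraries, and 1250 to 1390. The part of these shifts in the Fcer2a values was not tested.

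No other member was called in CB. In C 0 of 8 were called by edgeR (1 had an unadjusted p under 0.05, and DESeq2 called 0), where the background was 0.0%. In K 1 of 8 was called, where 0.0918% of 18511 genes were called and 0.0648% called lower, and 5 of 8 had an unadjusted p under 0.05. In CK 1 of 8 was called, where 18.6% of genes were called and 12.3% were called lower, so that the members' share was near the background. Against C the share called was 17.8%, with 12.1% lower and 1 member, and against K 17.4% with 0 members by edgeR and DESeq2 (4 at an unadjusted p under 0.05). The median of the 8 was -0.46 in K against 0.01 over all genes, and -0.19 against -0.06 in CK.

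Fcrla, which is expressed mainly in germinal center B cells, stood at 318, 318, 382 and 306 CPM in WT CB and at 243, 252 and 234 in K, without overlap, a log2 fold change of -0.45 (edgeR adjusted p 0.0299). Its CK libraries, at 321, 335 and 328 CPM, were within the WT range, and CK exceeded K by 0.43 (0.00161), under the fold limit. Fcrl1 stood at 210, 210, 259 and 219 CPM in WT and was lower in every mutant library, at 197, 184, 178 and 186 in C, 164, 162 and 161 in K and 190, 182 and 188 in CK. None of these differences was called, at log2 fold changes of -0.27, -0.47 and -0.27, and with the trend removed that of CK changed sign to 0.14. Fcmr stood at 299, 261 and 286 CPM in K, below all WT libraries (-0.31, edgeR adjusted p 0.131), and at 379, 356 and 382 in CK, within or just above the WT range (0.10, and -0.32 with the trend removed). For Fcgr2b the log2 fold changes against WT lay between -0.16 and 0.03. Fcrlb ranged from 0.573 to 2.73 CPM in WT, its lowest value being replicate 3, and from 2.59 to 3.39 in CK, a difference of 0.66 that was not called. Pirb was -0.54 in K and -0.49 in CK, not called.

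In CC the same comparisons addressed the light zone state, and no member was called against WT. Fcer2a stood at 271, 339, 277 and 386 CPM in WT, 378, 326, 285 and 280 in C, 237, 240, 242 and 221 in K and 180, 219 and 297 in CK (replicates 2, 3 and 4). All K libraries were below all WT libraries, while CK overlapped with WT through replicate 4. Each CK library was below the WT library of the same number. The log2 fold changes were 0.03 in C, -0.42 in K (95% interval -0.71 to -0.14, edgeR adjusted p 0.249) and -0.43 in CK (-0.75 to -0.12, 0.0607). The CK value was called with the trend removed, at -0.67, and without CK replicate 4, at -0.66. Between CK and K the difference was -0.01 (-0.32 to 0.30).

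Whether the effect of CK on Fcer2a differed between the fractions was tested directly. The effect was less negative in CC by 1.04 on the log2 scale (SE 0.23, 95% interval 0.59 to 1.5), with an edgeR adjusted p of 0.702 over 20659 genes and an unadjusted p of 9.3e-05, so it was not called. With the replicate number as a block it was called, at 1.06. The pairing behind that fit is uncertain, since the 2 CK pairs of CB and CC libraries correlated at -0.0939 and 0.178. For the 8 members, edgeR and DESeq2 each called 0 differences (1 at an unadjusted p under 0.05), with a background of 0.0%.

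Among the other members in CC, Fcrla stood at 307, 325, 341 and 312 CPM in WT and at 224, 261, 255 and 224 in K, without overlap (-0.40, edgeR adjusted p 0.0581), and its C and CK libraries stood at 296 to 310 and 274 to 337. Pirb stood at 10.7, 13.8, 11.5 and 15.1 CPM in WT, 9.84, 9.36, 10.3 and 7.61 in K and 9.17, 10.5 and 8.23 in CK, and all K and CK libraries were below all WT libraries. The log2 fold changes of -0.45 and -0.44 were not called. Myeloid markers summed to 61.1 to 71.6 CPM in WT, 43.9 to 54.1 in C, 49.1 to 62.2 in K and 78.5 to 87.8 in CK. Their part in the Pirb values was not tested. Fcrlb stood at 2.73, 2.77, 1.19 and 2.02 CPM in WT and at 3.87, 4.29 and 3.28 in CK, all higher, a change of 0.82 (edgeR adjusted p 0.0349) that was 0.38 with the trend removed. Fcmr stood at 510, 472, 457 and 398 CPM in C, below all WT libraries, and at 632, 793 and 605 in CK, of which replicate 4 lay within the WT range of 536 to 617. Its CK value exceeded the sum of the C and K changes by 0.60 (edgeR adjusted p 0.00904), the only such departure called for a member in CC, where 5.13% of genes were called upward. It was 0.04 with the trend removed and 0.38 with total counts only. The call was lost under both, with DESeq2 size factors (0.62) and in 12 of 15 leave-one-out fits (0.48 to 0.65), all but those without C replicate 1, K replicate 3 or CK replicate 4.

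By edgeR 0 of 8 members were called in C, K and CK of CC, with 4 of 8 at an unadjusted p under 0.05 in each, and DESeq2 also called 0. The background was 0.00533% of 18756 genes in C, 0.101% in K and 8.33% in CK. CK against C and against K each gave 0 by both tools, with 3 at an unadjusted p under 0.05, against backgrounds of 15.6% and 7.79%. The C, K and CK comparisons share their WT libraries.

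**Figure D3:**
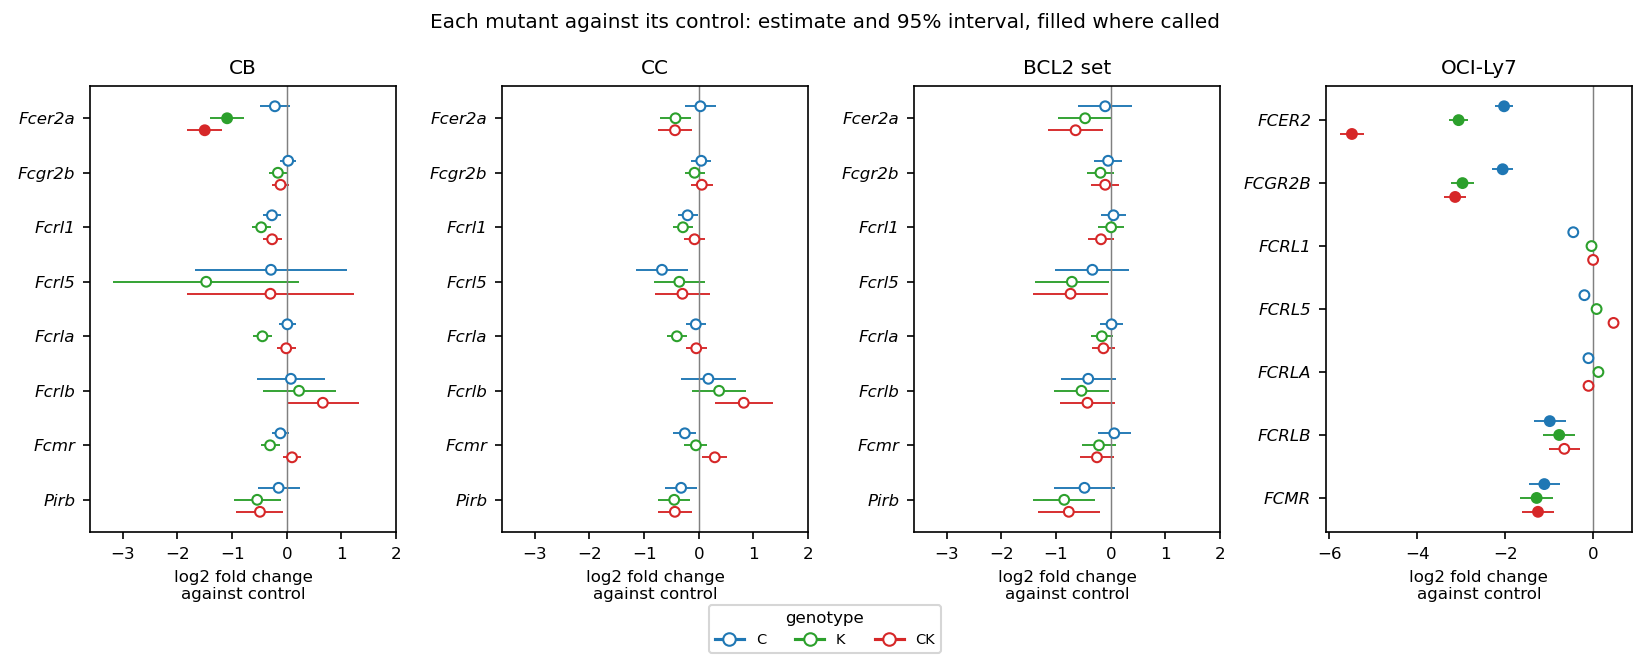
Log2 fold change of C, K and CK against the control (x axis, with a wider range in OCI-Ly7) in the 4 sets, with 95% intervals as bars and filled points where called. Among mouse genes only Fcer2a in CB was called, at -1.09 in K and -1.50 in CK; LILRB1 is left out of the OCI-Ly7 panel because all its edited libraries had a count of 0.

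In the BCL2 set the spread between libraries was wider and no member was called. Fcer2a stood at 265, 187, 275 and 109 CPM in BCL2, 211, 208, 163 and 197 in BCL2+C, 200, 108, 144 and 152 in BCL2+K and 182, 113, 93.1 and 147 in BCL2+CK. The groups overlapped throughout. The log2 fold change was -0.64 in BCL2+CK (95% interval -1.14 to -0.15, edgeR adjusted p 0.345) and -0.47 in BCL2+K (-0.96 to 0.03). Pirb stood at 28.8, 27.9, 46.3 and 17.6 CPM in BCL2, 12.2, 16.1, 17.8 and 20.9 in BCL2+K and 28.0, 14.7, 14.0 and 14.0 in BCL2+CK. Its changes of -0.85 and -0.77 (edgeR adjusted p 0.381 and 0.326) were the lowest among the members. Fcrl5 stood at 18.3, 22.5, 33.6 and 13.3 CPM in BCL2 and at 18.3, 10.9, 16.1 and 7.45 in BCL2+CK (-0.73, 95% interval -1.42 to -0.05).

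Fcgr2b, Fcrl1, Fcrla and Fcmr stood between 223 and 842 CPM in all BCL2 libraries, and Fcrlb between 0.926 and 2.40. By edgeR and DESeq2 0 of 8 were called in BCL2+C (0 at an unadjusted p under 0.05, background 0.045%), BCL2+K (1 and 0.0135%) and BCL2+CK (2 and 0.045%). The same held for BCL2+CK against BCL2+C (1 and 0.0855%) and against BCL2+K (0 and 0.036%). The median of the 8 was -0.34 in BCL2+CK against 0.00 over all 22222 genes tested. Naive follicular markers summed to 1210 to 3100 CPM in BCL2 and 959 to 1810 in BCL2+CK, and myeloid markers to 275 to 466 and 181 to 296, with overlapping ranges and no marker of either list at 0 throughout. Their part in the Fcer2a and Pirb values was not tested.

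**Figure D4:**
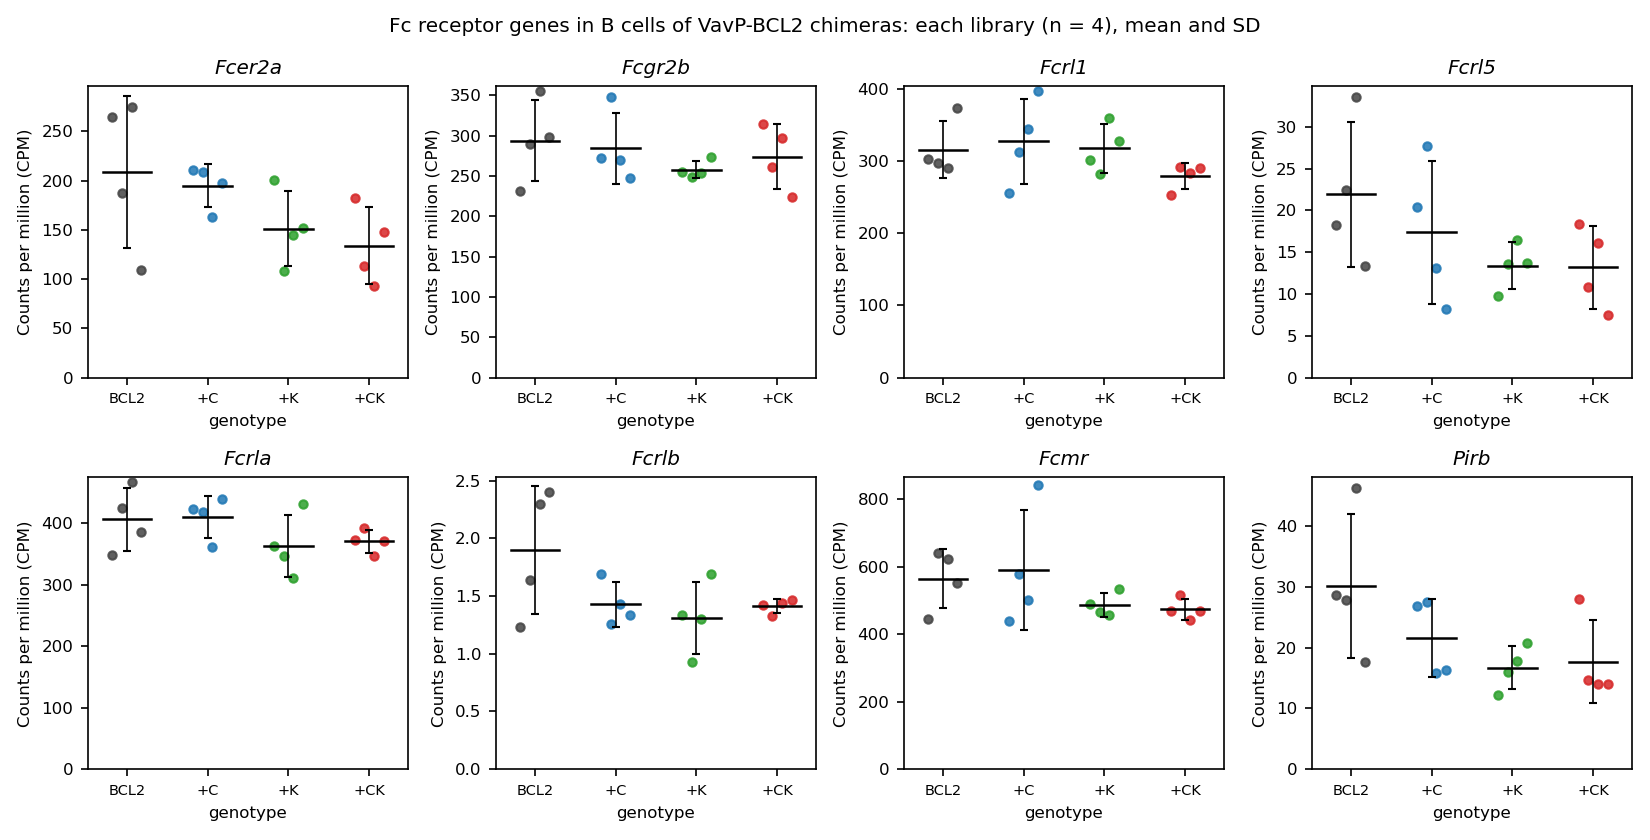
CPM (y axis, linear, from 0) of the 8 genes in the BCL2 set, with a point for each of 4 libraries per group, the mean as a line and the SD as a bar. The groups overlap for Fcer2a (93.1 to 275 CPM), and for Pirb a library of BCL2+CK at 28.0 CPM stands apart from the other 3.

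In OCI-Ly7 the question was the same for a homozygous CREBBP mutation and KMT2D knockout in human lymphoma cells. FCER2, FCGR2B, FCMR and LILRB1 were lower in C, K and CK, and FCRLB was lower in C and K. FCER2 stood at 37.1 and 40.0 CPM in WT, 9.33 and 9.59 in C, 4.20 and 5.06 in K and 0.797 and 0.918 in CK. The 4 genotypes did not overlap. The log2 fold changes against WT were -2.03 ± 0.10 in C (SE, edgeR adjusted p 4.17e-08), -3.06 ± 0.11 in K (2.41e-09) and -5.49 ± 0.14 in CK (5.71e-11), the last a 44.8-fold difference. CK was lower than C by -3.46 and lower than K by -2.43, both called. The CK change differed from C and K added together by -0.40 (95% interval -0.79 to -0.01, edgeR adjusted p 0.228), which was not called.

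FCGR2B stood at 29.2 and 28.5 CPM in WT, 6.95 and 6.89 in C, 4.23 and 3.09 in K and 3.32 and 3.23 in CK. All edited libraries were below WT, at log2 fold changes of -2.06, -2.97 and -3.14 (edgeR adjusted p 1.24e-07, 8.39e-09 and 2.86e-09). CK was lower than C by -1.08 (called) but differed from K by -0.17 (95% interval -0.46 to 0.13), and CK stood above the sum of the C and K changes by 1.89, which was called. FCGR2B has a near-identical copy, FCGR2C, so how reads were divided between them is uncertain. FCGR2C was low, at 20 and 21 counts in WT and at most 12 in any edited library, and it was called lower in CK (-3.33).

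LILRB1 had 684 and 845 counts in WT (18.6 and 22.4 CPM) and 0 counts in all 6 edited libraries. Against a floor of 3 counts per library it was at least 278-fold lower in C and at least 259-fold lower in K and in CK, a limit that covers counting error only. No difference between the edited genotypes could be seen at this depth. FCMR stood at 3.57 and 4.42 CPM in WT, 1.94 and 1.77 in C, 1.81 and 1.46 in K and 1.64 and 1.71 in CK. Its log2 fold changes were -1.11, -1.28 and -1.25 (edgeR adjusted p 0.000681, 0.00024 and 0.000191). CK differed from C by -0.14 (-0.54 to 0.25) and from K by 0.03 (-0.37 to 0.43).

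FCRLB stood at 3.76 and 4.74 CPM in WT, 1.91 and 2.38 in C, 2.27 and 2.73 in K and 2.85 and 2.55 in CK. It was called in C (-0.99, edgeR adjusted p 0.00187) and K (-0.77, 0.00795) and not in CK (-0.66, 0.0142). Both calls were lost with only the groups compared (-0.98 and -0.77), and they depended on single libraries. The C call was lost without C replicate 1 (-0.84) or WT replicate 2 (-0.81), and the K call without K replicate 1 (-0.64), K replicate 2 (-0.91) or WT replicate 2 (-0.59). CK was called without WT replicate 1 (-0.81).

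The other members moved little or the other way. FCRL1 stood at 85.9 and 86.1 CPM in WT, 63.9 and 61.8 in C, 83.2 and 84.4 in K and 87.0 and 84.8 in CK. It was lower in C alone among the 3, by -0.45 (edgeR adjusted p 6.95e-05), under the fold limit, and CK exceeded C by 0.45 (0.000127). FCRL5 stood at 102 and 97.2 CPM in WT, 87.4 and 86.0 in C, 107 and 103 in K and 138 and 136 in CK. All CK libraries were above all others, at 0.46 against WT (2.06e-05, under the fold limit) and 0.66 against C, which was called. FCRLA stood between 707 and 851 CPM in all 8 libraries, with changes of -0.11, 0.12 and -0.11.

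In C 5 of 8 members were called lower, where 5.31% of 23826 genes were called lower, in K 5 of 8 (5.09%) and in CK 4 of 8 (9.1%), and none was called higher, against 4.39%, 5.56% and 6.77% of genes. DESeq2 called 4 in K. All of these counts rest on the same 2 WT libraries, so they are not independent of each other. The medians of the 8 were -1.05, -1.03 and -0.95 against 0.00, 0.00 and -0.01 over all genes. Against C, CK had 2 members lower (3.55% of genes) and 1 higher (1.82%), and against K 1 lower (3.63%). The CK change exceeded C and K added together for FCGR2B and FCRL5 (2.22% of genes exceeded it), and DESeq2 called 3 such departures. The departure of FCRL5, at 0.58, lay at the fold limit and 4 of 8 leave-one-out fits lost it, those without C replicate 2, CK replicate 1, K replicate 2 or WT replicate 1, at 0.55 to 0.57. Summed germinal center markers ranged from 1930 to 1940 CPM in WT, 1730 in C, 1740 to 1760 in K and 1830 to 1870 in CK.

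**Figure D5:**
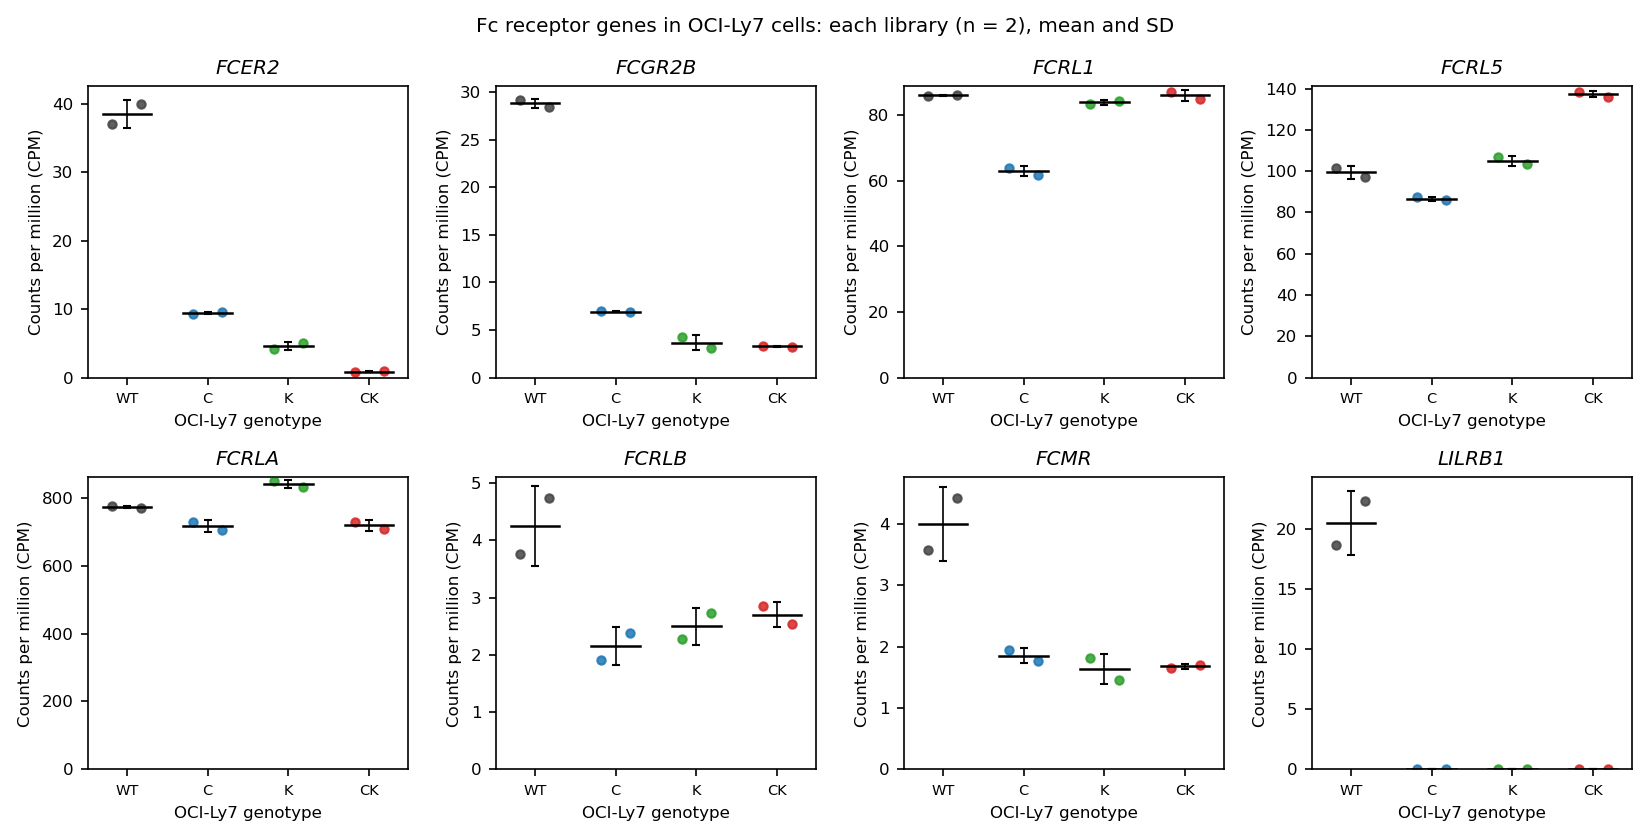
CPM (y axis, linear, from 0) of the 8 human genes in OCI-Ly7, with a point for each of 2 libraries per genotype, the mean as a line and the SD as a bar. FCER2 falls from 37.1 to 40.0 CPM in WT to under 1 CPM in CK, and LILRB1 is at 0 in all edited libraries.

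Genes around the Fc receptors were described from lists of related genes. For comparison, 18.6% of all genes tested were called in CK of CB (12.3% lower) and 8.33% in CK of CC. In OCI-Ly7, 5.31%, 5.09% and 9.1% of all genes were called lower in C, K and CK, and 4.39%, 5.56% and 6.77% higher. Whether a list departed from these shares was not tested. Among 10 partners of CD23 and CD21 (Cr2, the complement receptor CD21, with CD81 of its complex, Adam10, and inducers of CD23), Cr2 (-1.25) and Adam10 (-1.16) were called lower and Dtx1, a Notch target, higher (0.81) in CK of CB. In CK of CC, Adam10 (-0.80) and Cr2 (-0.79) were called lower and 0 higher. None of these 5 calls held with the trend removed, where the CB values were -0.49, -0.48 and 0.20 and the CC values -0.36 and -0.23. In OCI-Ly7, 3 of 10 were lower in C, 2 lower and 1 higher in K, and 5 lower and 1 higher in CK. CR2 stood at 51.5 CPM in WT (n = 2) and 1.5, 7.64 and 3.32 in C, K and CK, IL4R at 139 and 70.0, 88.1 and 62.1, and CD40, which receives T-cell help, at 83.9 and 56.7, 58.7 and 26.5. CD81 was higher in CK by 0.87. In WT mice Cr2 (1.49), Cd40 (1.32), Dtx1 (0.76) and Il4ra (0.68) were higher in CC than in CB, the last pair not called with the trend removed (0.58 and 0.53).

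Of 9 other inhibitory B-cell receptors, Btla (-1.46) and Ceacam1 (-1.50) were called lower in CK of CB, where 12.3% of all genes were called lower. Btla (-0.99), Cd5 (-1.03) and Ceacam1 (-1.10) were called lower in CK of CC, where 8.33% of all genes were called in either direction. Of these 5 calls, that of Btla in CC was lost with the trend removed, at -0.49. In OCI-Ly7, 3 were lower and 2 higher in C, 5 lower and 2 higher in K, and 5 lower and 0 higher in CK. Over all genes 5.31%, 5.09% and 9.1% were lower there in the same order, and 4.39%, 5.56% and 6.77% higher. PECAM1 went from 49.9 CPM in WT to 65.4, 23.1 and 10.6 in C, K and CK, SIGLEC10, a sialic acid receptor, from 36.7 to 32.0, 35.7 and 21.2, and CD300A from 4.54 to 2.81, 0.298 and 0.0905. BTLA went from 17.7 to 7.29, 8.98 and 11.5 CPM, and its CK level was the highest of the edited genotypes. LAIR1, a collagen receptor, had 62 and 84 counts in WT and at most 3 in any edited library. CEACAM1, whose mouse counterpart was lower in CK, stood at 4.14 CPM in WT OCI-Ly7 and 12.6, 6.44 and 5.64 in C, K and CK, and was named after its values were seen. CD22, also named after its values were seen, had higher means than WT (423 CPM) in C, K and CK, at 736, 857 and 548.

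Among 16 effectors of these receptors, Inppl1, a lipid phosphatase, was called higher in CK of CB (1.74) and CC (1.19), and Rasa1, a Ras regulator, lower in both (-1.68 and -1.60), all with the trend removed too. Ptpn22 was lower by -1.86 and -0.95, the second not called with the trend removed (-0.71), and Csk was higher in CB (0.66, and -0.03 with the trend removed). In OCI-Ly7, 4, 5 and 7 of 16 were lower in C, K and CK and 0 were higher. Over all genes 5.31%, 5.09% and 9.1% were lower there, and 4.39%, 5.56% and 6.77% higher. PTPN6, the phosphatase that LILRB1 recruits, went from 218 CPM in WT to 49.0 in C, 36.5 in K and 12.7 in CK, a log2 fold change of -4.11 ± 0.07 in CK (SE, edgeR adjusted p 5.02e-12). PTPN22 (128 to 49.5 CPM), DOK1 (17.9 to 7.12) and LYN, the kinase that phosphorylates inhibitory motifs (262 to 120), were also lower in CK. INPP5D, the partner of FCGR2B, went from 243 to 127 CPM and was named after its value was seen.

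Among 12 other mouse Fc receptors, edgeR called 0 of the 9 tested in CB and 0 of the 8 tested in CC in C, K or CK, with 0, 1 and 2 at an unadjusted p under 0.05 in CB and 4, 2 and 1 in CC. DESeq2 called 0 in CB and 1 in each of K and CK of CC. In OCI-Ly7, 9 of 17 passed the count filter. FCER1G, the signaling chain of several activating Fc receptors, stood at 3.08 CPM in WT and 1.52, 0.347 and 0.285 in C, K and CK, and FCRL2 was higher in CK by 0.70 (9.13 to 14.9 CPM). FCGR3A, FCER1A and FCRL6 were at 0 in all 8 libraries. Of 9 relatives of LILRB1, 5 were tested, and 3 were lower and 1, 1 and 2 higher in C, K and CK. Over all genes 5.31%, 5.09% and 9.1% were lower, and 4.39%, 5.56% and 6.77% higher. LILRB4 had 134 and 180 counts in WT, 89 and 93 in C, 42 and 35 in K and 0 and 1 in CK. LILRA2 had 78 and 113 counts in WT, 6 and 4 in C and 0 in K and CK, and LILRB2 had 20 and 21 in WT and 0 in all edited libraries. LILRB3 (30 and 33 in WT, 69 and 87 in CK) went the other way and was called in CK. LILRA6 was called higher in C, K and CK, with means under 1 CPM in every genotype. It had 1 and 0 counts in WT, 11 and 11 in C, 11 and 7 in K and 15 and 22 in CK. These genes form a family of close copies, so the division of reads between them is uncertain. In the BCL2 set no gene of these 5 lists was called by edgeR or DESeq2 against BCL2, with up to 6 genes of a list at an unadjusted p under 0.05. Of all genes, edgeR called 0.045% in BCL2+C, 0.0135% in BCL2+K and 0.045% in BCL2+CK.

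Genes within 100 kb of the called members were examined. Around mouse Fcer2a in CK of CB, Xab2 was called higher (107 CPM in WT to 176 in CK, log2 fold change 0.72), and Stxbp2 (0.56, edgeR adjusted p 4.34e-05) and Trappc5 (0.30, at 482 bases) were not called. None of these neighbours was called in K. LILRB4, at 5867 bases from LILRB1, and LILRA2, at 26871 bases, were both called lower in C, K and CK. Near FCER2, TRAPPC5 at 1055 bases was lower in CK (4.79 to 1.90 CPM, log2 fold change -1.33), as was MCEMP1 at 8929 bases, from 0.803 to 0.0776 CPM. The other tested neighbours of FCER2 were not called in CK, with log2 fold changes of -0.08 for XAB2, -0.14 for STXBP2, 0.21 for PET100, -0.96 for CAMSAP3 and -1.39 for PCP2. FCRLA and FCRLB lie on the same part of chromosome 1 as FCGR2B. FCRLB, at 42890 bases, was called lower in C and K, and FCRLA, at 28318 bases, was not called in any genotype. FCGR2C, the near-identical copy of FCGR2B, lies at 57481 bases. It was called lower in CK (-3.33, edgeR adjusted p 0.00821) but not in C (-3.40, 0.0102) or K (-0.90, 0.345). Its counts were low, at 20 and 21 in WT and 4 and 0 in CK.

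The genes whose levels were most like each member over the 29 CB and CC libraries were described by Pearson's r of log2 CPM. These libraries share fraction and genotype, so any gene that differs between CB and CC scores high. Fcer2a was most like Slamf1 (0.976), Rassf5 (0.974) and Hhex (0.974), and Fcmr was most like Iah1 (0.976), Grb2 (0.970) and H2-Aa (0.963). Pirb and Fcgr2b shared Ncf1 (0.968 and 0.945) and Ifngr2 (0.966 and 0.955) among their 3. Fcrl5 was most like Cd38 (0.956), a marker used in sorting GC B cells, Rilpl2 (0.953) and Nfkbia (0.952). Fcrl1, with Tnfaip8l2 (0.871), Fcrla, with Cyp4f18 (0.874), and Fcrlb, with Gpatch3 (0.875), had lower values for their best match.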

How the data were processed

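The libraries were stranded mRNA libraries. The authors aligned the reads to mm10 or hg38 with a public RNA-seq pipeline, and the deposited values are unnormalized read counts for each gene. Whether counting used the strand is not given in the sources used here. The study's total-mRNA factors, taken from its single-cell data, were not applied, so every change is one against the rest of its library.

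Genes with at least 10 counts summed over a fit were tested by edgeR 4.0.16 (R 4.3.3), using TMM factors and the quasi-likelihood F-test. P-values were adjusted by Benjamini-Hochberg across the genes of that fit. This left 18511 genes in CB, 18756 in CC, 22222 in the BCL2 set and 23826 in OCI-Ly7, with all 4 genotypes in each fit. A joint fit of the 29 CB and CC libraries tested 20659 genes. Calls needed an adjusted p under 0.01 together with a log2 fold change beyond 0.58 in size. CPM used TMM-scaled library sizes. DESeq2 1.42.0, other scalings and filters, fits without single libraries, a replicate block and removal of each library's trend on GC content and length were alternatives. The tests were tested on simulated data.

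The members were named by the rule in every comparison. Of the related lists, the genes called in CK against WT were named when 5 or fewer and otherwise the 4 with the largest change, at a mean of at least 1 CPM. For likeness, the 3 highest of the genes with a mean of at least 5 CPM were taken. The members and lists were chosen with earlier results of these data known. Groups and replicate numbers came from the sample labels. Whether numbers pair libraries was checked by the correlation of deviations from group means. They paired WT and CK in CC (0.26 to 0.644 over 3 pairs) and CB with CC in WT (0.277 to 0.697) and in C (0.21 to 0.301). No source used here ties same-numbered libraries to one animal. Where separate animals or cultures are not stated, p-values measure only the spread between libraries, which may be technical. Replicates differed by more than sampling noise. Floors cover counting error only.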

Additional observations from a re-analysis of the deposited data

Results flagged for a closer look

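Of 72 groups of 4 libraries tested, 4 held a library whose distance from its nearest neighbour exceeded Dixon's 95% critical value, where chance gives about 5% of groups. Fcgr2b stood at 353.259 CPM in WT CC replicate 1, against 302 to 303 in the other 3. Fcrl1 stood at 374.052 CPM in BCL2 replicate 4, against 290 to 303. Fcrla stood at 381.701 CPM in WT CB replicate 3, against 306 to 318, in the library least like its own group. Pirb stood at 28.0118 CPM in BCL2+CK replicate 1, against 14.0 to 14.7. Leaving out each of these libraries in turn changed no call for the gene concerned against WT or BCL2.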

How the results depend on the processing

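Counts are of members called. With the GC and length trend removed, 1 was called for CK against K in CB, 1 for CK against C in CC and 1 for CK against WT in CC, as in the fits with a replicate block and the trend removed. With the replicate block alone, and with the trend removed as well, 1 was called for the difference of the CK effect between CC and CB (Fcer2a). The block alone also changed the calls of Fcgr2b in CC against CB of CK (lost, 0.56), of FCRLB in CK of OCI-Ly7 (gained, -0.65) and of the departures from the C and K sum of FCMR and FCRLB there (gained, 1.14 and 1.10), and no other call. With total counts as the only scaling, 1 was called for CK against C in CC. At an adjusted p under 0.05, 1 was called for CK against WT in CC (Fcrlb, which was higher). With only the groups compared, 0 were called for K against WT in CB. Leaving out single libraries gave 0 to 1 for K against WT in CB, 0 to 2 for CK against C in CC (1 without C replicate 1 or CK replicate 2 and 2 without CK replicate 4), 0 to 1 for CK against WT in CC, 4 to 5 for each of C, K and CK in OCI-Ly7 and 4 to 5 for CC against CB in CK. Across all alternatives, 3790 values kept their direction and side of the threshold, 35 gained and 39 lost a call, 232 changed sign without a call in either fit, and none changed sign while called. Members with a mean under about 5 CPM are limited by depth. In mice these were Fcrl5 in CB and in mutant CC, Pirb in CB, and Fcrlb in all sets. In OCI-Ly7 they were FCMR and FCRLB, FCER2 and FCGR2B in K and CK, and LILRB1 in all edited genotypes. With 2 libraries per OCI-Ly7 genotype single libraries weigh most.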

Other observations

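In OCI-Ly7, DTX1, a Notch target listed with the partners of CD23, stood at 406 CPM in WT (n = 2) and at 572, 569 and 586 CPM in C, K and CK. Its mean was higher in each edited genotype but was not called in any, and FCER2 and CR2 were called lower in all 3. NOTCH2, on the same list, stood at 203 CPM in WT and at 158, 141 and 116 in C, K and CK. It was called lower in CK (-0.81, edgeR adjusted p 4.83e-08). Whether Notch plays a part in these values was not tested.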
